A study of Mus musculus with 32 samples.

Results

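The genes described here are 10 markers in common use for monocytes and macrophages: Lyz2, Cybb, Plac8, Ccr2, Ms4a7, Cd14, Msr1, Mrc1, F13a1 and Cd68. They were chosen by name and make up 10 of the 19938 genes that the array measured through a probe set carrying 1 gene symbol. Each had exactly 1 such probe set, so the level of a gene is the log2 intensity of that probe set. RNA was measured on Affymetrix mouse gene arrays in 20 mouse brains and in 12 arrays of cultured lymphoma cells, all of the BALB/c strain. The labels call the brain samples whole brain, while the extraction protocol, worded alike for every sample, names frozen sections, so how much of each brain entered the RNA is not settled. BAL17 is a mouse B cell lymphoma line, and BAL17VII is a line derived from it. The implanted mice were wild type and received 500000 cells in the brain. The groups were 5 brains taken 21 days after BAL17VII cells, 5 brains taken 28 days after BAL17 cells, 5 brains taken 21 days after BAL17 cells, 5 brains taken 28 days after an injection of PBS, 6 arrays of cultured BAL17VII and 6 arrays of cultured BAL17. PBS brains at day 21 and BAL17VII brains at day 28 were not analysed here, so a day 21 brain differs from its PBS control in day as well as in implant. Each implanted line is a single tumour line, and the labels do not say that the arrays of a cultured line came from separate cultures, so p-values for the lines measure the spread between these arrays, which may be technical.

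Monocytes leave the blood through chemokine receptors such as Ccr2 and can become macrophages in a tissue. Macrophages take up particles and modified lipoproteins through scavenger receptors and lectins, kill microbes with lysozyme and with the superoxide made by the NADPH oxidase, and sense bacterial products through Cd14. The brain holds macrophages of its own, the microglia of the parenchyma and the macrophages of its borders, and B cells share with macrophages the transcription factor PU.1 (Spi1) and several of the genes it binds, among them Cybb. Brain tissue carrying an implanted lymphoma therefore holds at least 2 possible sources for each of these markers, the lymphoma cells and the host. In such bulk RNA, fewer cells of a type and less RNA per cell cannot be told apart.

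Promoters of 8 of the 10 markers were found in the RefSeq promoter table (assembly GRCm38.p6), which held 11 promoters for them, each 300 bases long and spanning a transcription start. Those of Lyz2, Mrc1, F13a1 and Cybb are shown because the results turn on these genes. The first 3 rose in BAL17-implanted brains and were higher there than in cultured BAL17. The fourth already exceeded the array's median intensity on every array of both cultured lymphoma lines. The promoters are read in the direction of the gene, with the purine-rich PU box, GAGGAA on either strand, in capitals. They lie at chr10:117282223-117282522 (minus strand, Lyz2), chr2:14229164-14229463 (plus strand, Mrc1), chr13:37050195-37050494 (minus strand, F13a1) and chrX:9469275-9469574 (minus strand, Cybb).
Lyz2: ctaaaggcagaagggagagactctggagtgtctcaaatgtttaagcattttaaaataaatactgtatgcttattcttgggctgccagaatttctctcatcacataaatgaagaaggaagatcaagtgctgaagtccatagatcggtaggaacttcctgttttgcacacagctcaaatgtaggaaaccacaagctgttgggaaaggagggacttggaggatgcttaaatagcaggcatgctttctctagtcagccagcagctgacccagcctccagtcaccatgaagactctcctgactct
Mrc1: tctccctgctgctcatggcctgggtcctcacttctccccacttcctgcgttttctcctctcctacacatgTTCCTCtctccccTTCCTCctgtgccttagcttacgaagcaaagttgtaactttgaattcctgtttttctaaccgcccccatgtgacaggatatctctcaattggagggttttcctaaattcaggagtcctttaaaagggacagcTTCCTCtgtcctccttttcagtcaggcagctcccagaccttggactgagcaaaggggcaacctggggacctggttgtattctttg
F13a1: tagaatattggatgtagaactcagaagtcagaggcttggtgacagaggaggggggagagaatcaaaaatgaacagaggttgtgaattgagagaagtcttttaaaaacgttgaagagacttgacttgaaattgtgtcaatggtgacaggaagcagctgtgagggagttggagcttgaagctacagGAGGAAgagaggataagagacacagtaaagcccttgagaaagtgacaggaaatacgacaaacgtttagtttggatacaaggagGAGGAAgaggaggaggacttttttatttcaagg
Cybb: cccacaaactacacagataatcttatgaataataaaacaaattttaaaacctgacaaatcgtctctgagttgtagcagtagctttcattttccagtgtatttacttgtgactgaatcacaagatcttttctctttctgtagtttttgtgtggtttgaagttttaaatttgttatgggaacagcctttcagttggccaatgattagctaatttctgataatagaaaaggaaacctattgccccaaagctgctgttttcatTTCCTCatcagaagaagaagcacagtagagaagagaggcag
The Mrc1 promoter held 3 PU boxes, this F13a1 promoter 2 and the Cybb promoter 1, whereas the Lyz2 window held none. A PU box was present in 7 of the 11 promoters, belonging to 6 of the 8 markers, beside 28.3% of the 32851 promoters in the table. The second pattern searched, the C/EBP pattern TTGCNNAA on either strand, was present in 2 of the 11 promoters, those of Cd68 and of a downstream Plac8 start, beside 10.8% of all promoters, and it overlapped no PU box. These matches describe letters only, and genes with and without a PU box were found among those that rose in implanted brains.

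The label of these genes held only in part, since 3 of them were measured above the array median in the lymphoma lines themselves. A gene was counted as present in a line where it exceeded the array's median intensity on all 6 arrays of that line. By this rule Cybb, Plac8 and Cd68 were present in both cultured lines. Cd68 also exceeded the 75th percentile of the array on all 6 arrays of each line. Cybb and Plac8 did so on all 6 BAL17VII arrays and on 0 of the 6 BAL17 arrays. Lyz2, Ccr2, Ms4a7, Cd14, Msr1 and F13a1 exceeded the median on no array of either line and are called host-only below, and Mrc1 exceeded it on 1 of the 12 line arrays. Host-only is a statement about the lines and not about the host, and it does not mean a higher level in the host. For Ccr2, Ms4a7 and Msr1, PBS brains had the lowest mean of all groups, at 4.365, 4.735 and 4.376. Cultured BAL17VII cells had 5.235, 4.806 and 4.761, and cultured BAL17 cells 4.434, 4.782 and 4.77. Of the 6 host-only genes, Lyz2 exceeded the array median in all 20 brains, PBS brains included, while Ccr2, Ms4a7, Cd14, Msr1 and F13a1 stayed below it on all 32 arrays, so their differences are read at low signal. With the 25th percentile of the array as the threshold, 2 genes, Ms4a7 and Msr1, remained host-only.

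**Figure D1:**
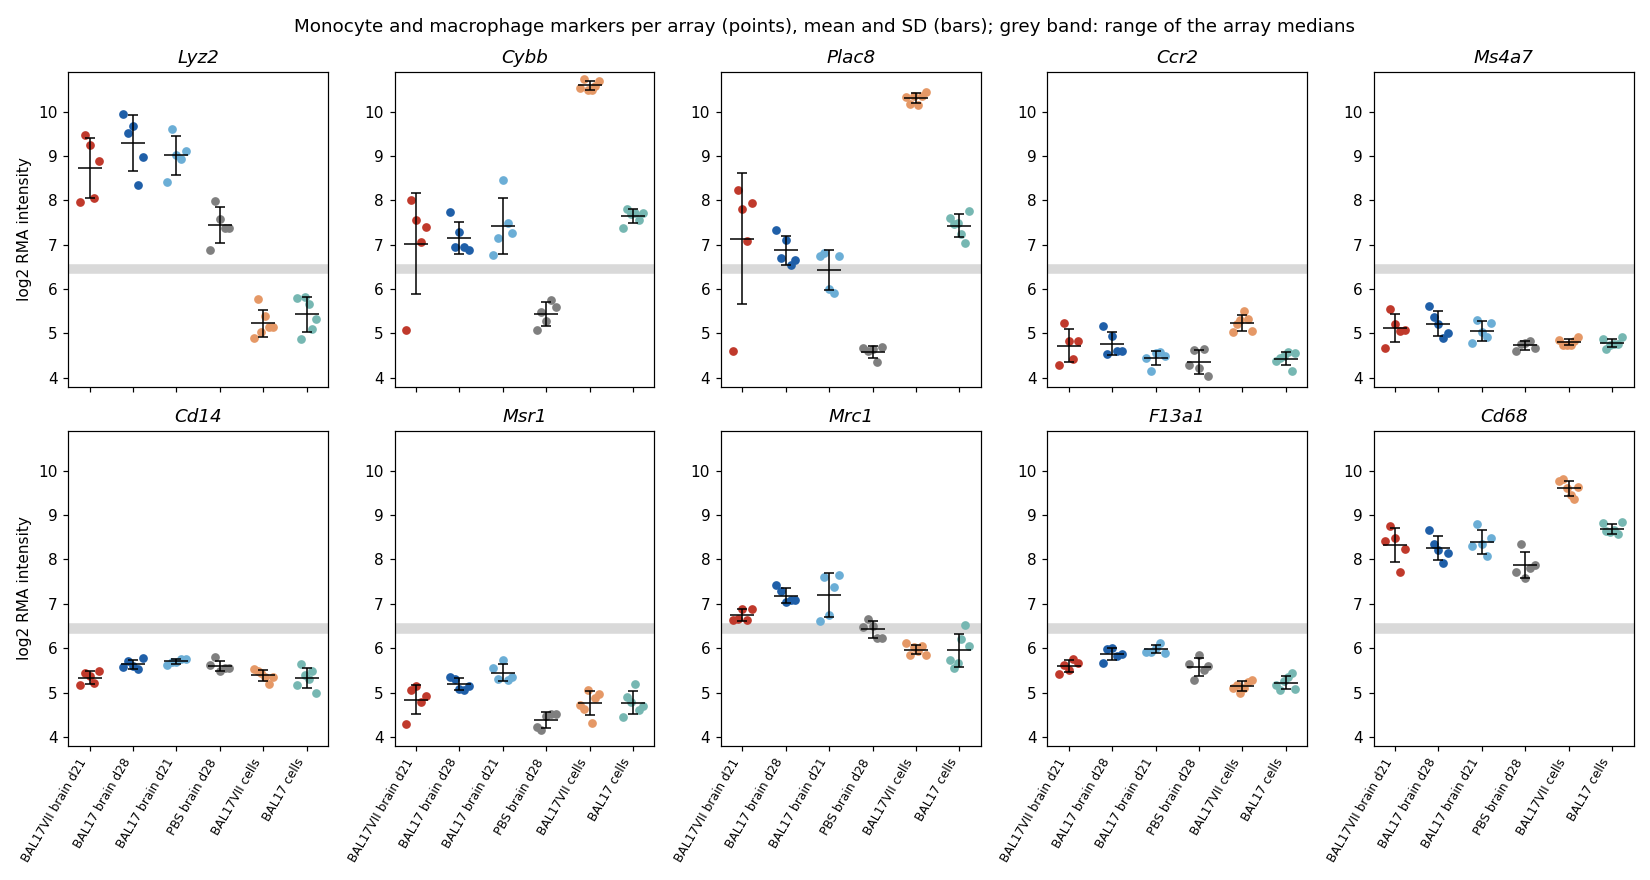
Log2 RMA intensity of each marker (vertical axis) on each array (points) in the 6 groups, with the mean and SD as bars and the range of the array medians as a grey band. Lyz2 lies above the band in every brain and below it in every cultured array, whereas Cybb, Plac8 and Cd68 lie above it in both cultured lines and Ccr2, Ms4a7, Cd14, Msr1 and F13a1 stay below it throughout.

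Arrays of a group correlated between 0.979 and 0.9941 over all genes, and the arrays' median intensities ran from 81.7 to 93.0. Library 1 of the BAL17VII brains stood apart. The mean log2 intensity of 9 B lineage genes was 6.06 in it, 6.97 to 7.58 in the other 4 BAL17VII brains and 5.90 to 6.24 in the PBS brains. It was 7.69 to 7.94 in BAL17 brains at day 28 and 7.38 to 7.93 at day 21. The mean of 7 pituitary genes was 5.58 to 9.14 in BAL17VII brains, against 5.61 to 6.54 in PBS brains. Marker differences that rest on BAL17VII brains are therefore also given without brain 1. Choroid plexus and meningeal genes moved in another group: of 10, 5 fell in BAL17 brains at day 28 against PBS, Otx2, Clic6, Kl, Folr1 and Ttr, and their mean was 6.67 to 7.34 there, against 7.27 to 7.82 in PBS brains. At day 21, 1 of them, Lum, fell in BAL17 brains, and none was called in BAL17VII brains by limma's test (1 higher at an unadjusted p under 0.05). The part of this tissue in the marker differences was not tested.

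Against PBS brains, 7 of the 10 markers rose in BAL17 brains at day 28 (Lyz2, Cybb, Plac8, Ms4a7, Msr1, Mrc1 and F13a1) and 7 rose at day 21 (Lyz2, Cybb, Plac8, Msr1, Mrc1, F13a1 and Cd68), while 3 rose in BAL17VII brains at day 21 (Lyz2, Cybb and Plac8). No marker fell in any of the 3 comparisons, which share the same 5 PBS brains, and at an unadjusted p under 0.05 limma's test placed 1, Cd14 in BAL17VII brains, lower. A rise or fall here means an adjusted p under 0.05 in limma's moderated test, with Benjamini-Hochberg adjustment over all 19938 genes. Of all genes tested, 2.05% were called higher in BAL17VII brains, 6.56% in BAL17 brains at day 28 and 11.0% in BAL17 brains at day 21. Called lower were 129, 2290 and 3747 of the 19938 genes in these groups. The median log2 difference of the 10 markers was 0.42 in BAL17VII brains, beside a median of -0.01 over all genes. It was 0.62 at day 28 and 0.65 at day 21 in BAL17 brains, beside medians of -0.02 and -0.004. Without brain 1, 5 markers rose in BAL17VII brains, with Ms4a7 (0.49 ± 0.13, adjusted p = 0.0411) and Msr1 (0.60 ± 0.11, adjusted p = 0.00136) added to the 3. The remaining markers were not called without it, at 0.47 for Ccr2, 0.42 for Cd68, 0.35 for Mrc1, -0.22 for Cd14 and 0.07 for F13a1 (adjusted p from 0.105 to 0.809). The count was also 5 without BAL17VII brain 4, with Msr1 and Cd68 added, and 1 without BAL17VII brain 2, BAL17VII brain 3 or PBS brain 1. Of all genes, 409 were called higher in BAL17VII brains with every array, 553 without BAL17VII brain 1 and 577 without BAL17VII brain 4. Without BAL17VII brain 2, BAL17VII brain 3 or PBS brain 1 the numbers were 210, 212 and 276.

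**Figure D2:**
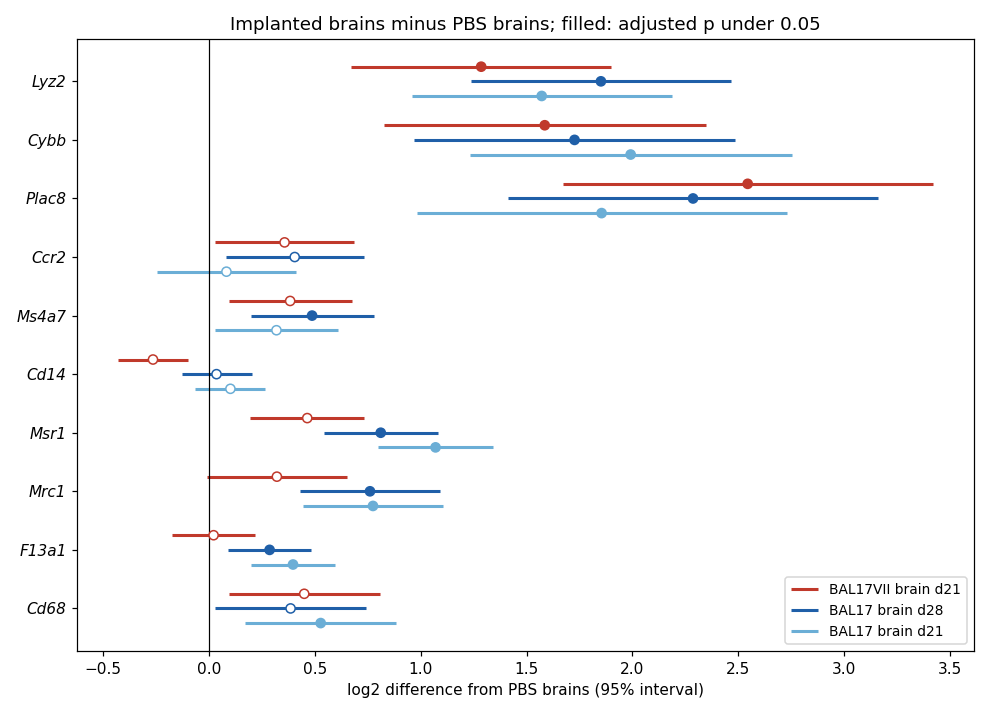
Log2 difference from PBS brains (horizontal axis) with its 95% interval for each marker in BAL17VII brains at day 21, BAL17 brains at day 28 and BAL17 brains at day 21, with filled points where the adjusted p was under 0.05. Lyz2, Cybb and Plac8 are filled in all 3 groups, and the point of Cd14 in BAL17VII brains lies below 0, at -0.26, unfilled.

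Lyz2 encodes lysozyme M, the bacteriolytic enzyme that monocytes, macrophages and granulocytes make in large amounts. Its log2 intensity was 7.97, 9.47, 9.25, 8.06 and 8.88 in BAL17VII brains at day 21. It was 9.95, 9.52, 9.67, 8.35 and 8.98 in BAL17 brains at day 28, and 8.40, 9.61, 9.03, 8.93 and 9.10 at day 21. The PBS brains had 6.88, 7.99, 7.59, 7.37 and 7.39. Every BAL17 brain thus exceeded every PBS brain, and BAL17VII brain 1 fell just under the highest PBS brain. Of all 19938 genes, 5.66% exceeded every PBS brain in all BAL17 brains of day 28. The share was 7.01% in BAL17 brains at day 21 and 1.42% in BAL17VII brains. Of the 10 markers, 6, 5 and 0 did so in these groups, as given gene by gene here and below. In culture Lyz2 was low, between 4.91 and 5.77 (median 5.15) in BAL17VII cells and between 4.88 and 5.83 (median 5.50) in BAL17 cells.

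Lyz2 rose 2.44-fold in BAL17VII brains (log2 difference 1.29 ± 0.30 SE, adjusted p = 0.0179), 3.61-fold in BAL17 brains at day 28 (1.85 ± 0.30, adjusted p = 0.000135) and 2.97-fold at day 21 (1.57 ± 0.30, adjusted p = 0.000327). The call in BAL17VII brains was lost without BAL17VII brain 2 (adjusted p = 0.0865), BAL17VII brain 3 (0.0719) or PBS brain 1 (0.0597), and the adjusted p was 0.00293 without BAL17VII brain 1. The order of means ran from BAL17 brains at day 28 to BAL17 brains at day 21 and BAL17VII brains, whose values overlapped, then PBS brains, then the cultured lines, whose values also overlapped. Lyz1, the neighbouring lysozyme gene with nearly the same sequence, rose in BAL17 brains at day 28 (0.76 ± 0.17) and at day 21 (0.59 ± 0.17), and whether its transcripts bind the Lyz2 probes could not be settled from these files. The other granulocyte markers gave a low signal: the mean over the 14 granulocyte genes lay between 5.09 and 5.51 in every brain, and S100a8 averaged 4.41 in BAL17VII brains, 4.32 and 4.38 in BAL17 brains at days 28 and 21, and 4.23 in PBS brains. Beside Lyz1, the granulocyte genes called were Lcn2, which is also made by reactive astrocytes, at days 28 and 21, and Retnlg at day 21.

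Cd68, a glycoprotein of the lysosome membrane and a common stain for macrophages, differed less between brains. Its levels were 8.42, 8.75, 8.48, 7.72 and 8.24 in BAL17VII brains, 8.67, 8.35, 8.21, 7.92 and 8.14 in BAL17 brains at day 28 and 8.30, 8.80, 8.35, 8.07 and 8.49 at day 21. PBS brains had 7.72, 8.35, 7.59, 7.82 and 7.89, so that every implanted group overlapped them. The rise at day 21 (0.53 ± 0.17, adjusted p = 0.0234) was lost when any of 4 arrays was left out, BAL17 brain 2 (adjusted p = 0.0639), BAL17 brain 5 (0.0509), PBS brain 1 (0.0547) or PBS brain 3 (0.0635). The differences of 0.45 ± 0.17 in BAL17VII brains (adjusted p = 0.176) and 0.39 ± 0.17 at day 28 (adjusted p = 0.125) did not pass, though the first did without BAL17VII brain 4 (0.60, adjusted p = 0.0277) and the second after quantile normalization (adjusted p = 0.0376) and with array weights (adjusted p = 0.0282). Among 10 other lysosomal genes, Laptm5 rose by 0.71 ± 0.13 in BAL17VII brains and by 0.99 ± 0.13 both at day 28 and at day 21. The others were mixed, with Ctsz higher and Ctsd lower at day 28, and Ctsz higher and Ctsb and Hexa lower at day 21.

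Cybb encodes the catalytic subunit of the phagocyte NADPH oxidase, which B cells also carry. Its level ran from 10.50 to 10.74 (median 10.56) in cultured BAL17VII cells and from 7.39 to 7.81 (median 7.70) in BAL17 cells. BAL17VII brains had 5.09, 8.01, 7.56, 7.06 and 7.40, and PBS brains 5.08, 5.48, 5.27, 5.75 and 5.61. BAL17 brains had 7.74, 6.95, 7.29, 6.94 and 6.89 at day 28 and 6.76, 7.16, 8.46, 7.50 and 7.26 at day 21. All 10 BAL17 brains and 4 of 5 BAL17VII brains exceeded every PBS brain, while BAL17VII brain 1, at 5.09, lay within the PBS range.

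Cybb rose in BAL17VII brains (log2 difference 1.59 ± 0.37, adjusted p = 0.0184), 3.31-fold in BAL17 brains at day 28 (1.73 ± 0.37, adjusted p = 0.00224) and 3.98-fold at day 21 (1.99 ± 0.37, adjusted p = 0.000263). In BAL17VII brains the call was lost in a fit of these 2 groups alone (adjusted p = 0.0761) and without BAL17VII brain 2 (0.0889), BAL17VII brain 3 (0.0707) or PBS brain 1 (0.0544), and the difference was 2.07 ± 0.25 (adjusted p = 3.96e-06) without BAL17VII brain 1. Of 5 other oxidase genes on the array, 3 rose in BAL17VII brains, the same 3 at day 28 and 4 at day 21, and none fell. Cyba, the membrane partner of Cybb, rose by 0.49 ± 0.12, 0.75 ± 0.12 and 0.84 ± 0.12 in these groups in that order. Rac2, the small GTPase of the complex in blood cells, rose by 0.52 ± 0.14, 0.76 ± 0.14 and 0.81 ± 0.14, and the cytosolic subunit Ncf4 rose by 0.51 ± 0.11, 0.54 ± 0.11 and 0.65 ± 0.11. Ncf1, another cytosolic subunit, rose at day 21 (0.28 ± 0.10). The mean over these 5 genes was 9.17 in cultured BAL17VII cells and 8.40 in cultured BAL17 cells. It was 7.65 in BAL17VII brains, 7.70 and 7.77 in BAL17 brains at days 28 and 21, and 7.27 in PBS brains. Whether their rise came from lymphoma cells or from the host was not tested.

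Plac8, a small cysteine-rich protein of myeloid and lymphoid cells, had the largest rise of the 10 markers in BAL17VII brains and in BAL17 brains at day 28. BAL17VII brains had 4.60, 8.23, 7.81, 7.08 and 7.94. BAL17 brains had 7.34, 6.71, 7.11, 6.55 and 6.66 at day 28 and 6.74, 6.82, 6.0, 5.90 and 6.75 at day 21, and PBS brains 4.67, 4.60, 4.64, 4.35 and 4.68. Brain 1 of the BAL17VII group again lay within the PBS range, and every other implanted brain lay above all PBS brains. The differences were 2.54 ± 0.42 (5.84-fold, adjusted p = 0.00121) in BAL17VII brains (3.18 ± 0.21, adjusted p = 3.15e-10, without BAL17VII brain 1), 2.29 ± 0.42 (4.88-fold, adjusted p = 0.000603) at day 28 and 1.85 ± 0.42 (3.62-fold, adjusted p = 0.00188) at day 21. Cultured BAL17VII cells held 10.16 to 10.45 (median 10.34) and BAL17 cells 7.03 to 7.76 (median 7.47).

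**Figure D3:**
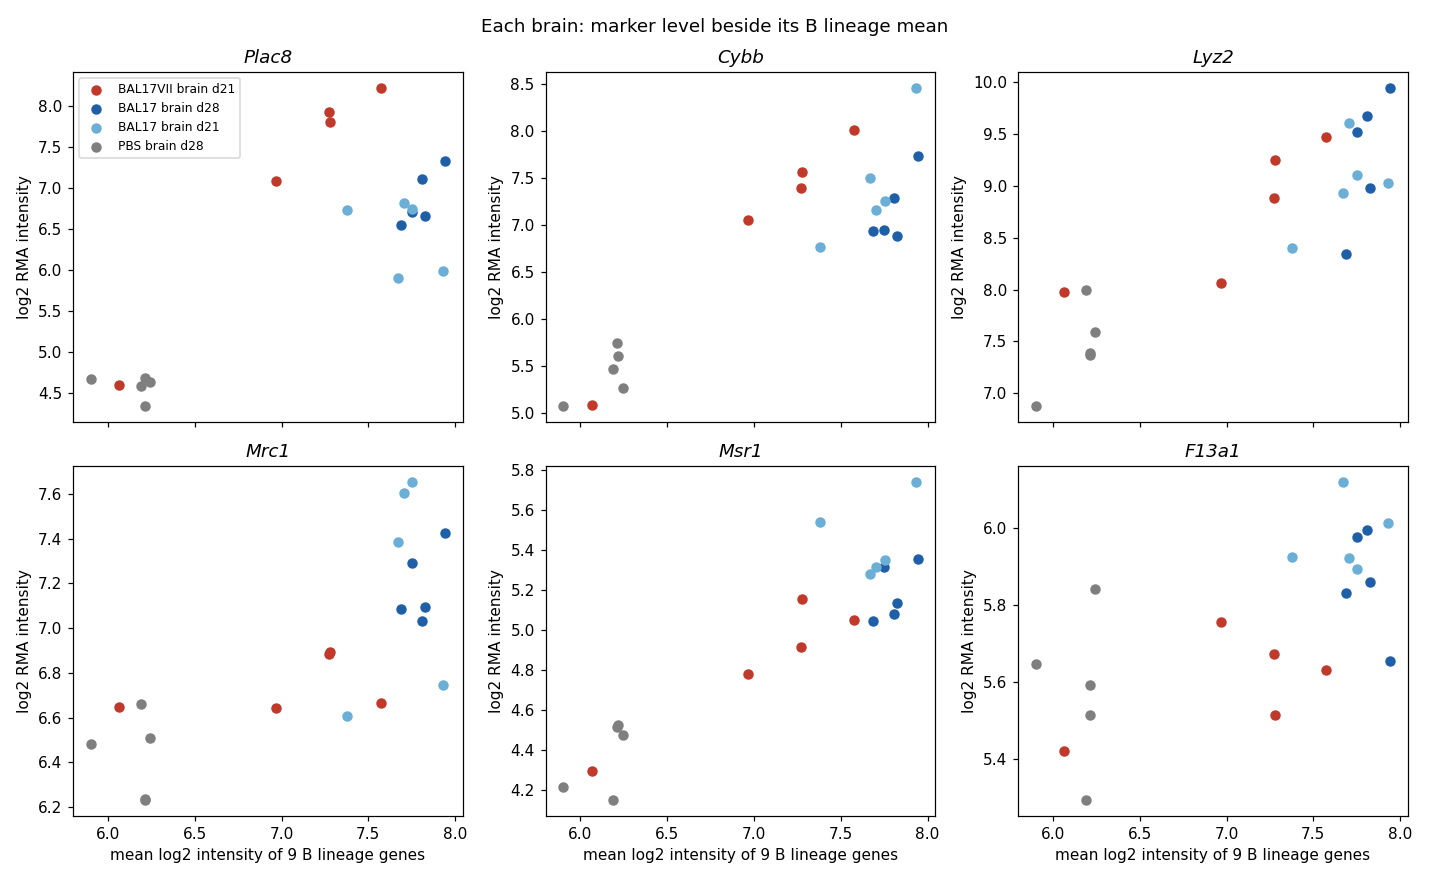
Log2 intensity of Plac8, Cybb, Lyz2, Mrc1, Msr1 and F13a1 (vertical axes) beside the mean log2 intensity of 9 B lineage genes (horizontal axis) in each of the 20 brains. BAL17VII brain 1 lies among the PBS brains at a B lineage mean of 6.06, with Plac8 at 4.60 and Cybb at 5.09, while its Lyz2 of 7.97 lies at the upper end of the PBS range.

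Ccr2, the receptor that draws inflammatory monocytes along gradients of Ccl2 and related chemokines, stayed low in all groups. It lay between 4.28 and 5.23 in BAL17VII brains, 4.55 and 5.16 in BAL17 brains at day 28, 4.16 and 4.58 at day 21, and 4.04 and 4.65 in PBS brains. No difference from PBS passed, with 0.36 ± 0.16 in BAL17VII brains (95% interval 0.03 to 0.68, adjusted p = 0.259), 0.40 ± 0.16 at day 28 (0.08 to 0.73, adjusted p = 0.0776) and 0.08 ± 0.16 at day 21 (-0.24 to 0.41, adjusted p = 0.729). The difference at day 28 passed with array weights (0.46 ± 0.13, adjusted p = 0.0108) and without PBS brain 4 (adjusted p = 0.0482). The highest mean of Ccr2 was in cultured BAL17VII cells.

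Chemokines that bind Ccr2 were called where Ccr2 was not, and no test compared the receptor with its ligands. At day 28 the difference of Ccr2 (0.40 ± 0.16) was of like size to those of Ccl2 and Ccl7. Of 10 other genes of monocyte recruitment and survival, Ccl12 was called in BAL17VII brains and rose there by 1.20 ± 0.32 (adjusted p = 0.0399). In BAL17 brains at day 28, Ccl2 (0.37 ± 0.11), Ccl7 (0.37 ± 0.11) and Ccl8 (0.78 ± 0.24) rose. At day 21 the same 3 rose (0.44 ± 0.11, 0.34 ± 0.11 and 0.86 ± 0.24) together with Ccl12 (1.21 ± 0.32). Il34, a neuronal ligand of the macrophage growth factor receptor, fell by 0.47 ± 0.12 at day 28 and 0.51 ± 0.12 at day 21, and the neuronal chemokine Cx3cl1 fell by 0.25 ± 0.08 and 0.51 ± 0.08. Its receptor Cx3cr1, carried by microglia, fell by 0.30 ± 0.10 at day 21.

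Ms4a7 encodes a four-span membrane protein of macrophages. Its values were 4.68, 5.56, 5.21, 5.06 and 5.09 in BAL17VII brains, 5.62, 5.37, 5.20, 4.90 and 5.02 in BAL17 brains at day 28, 4.78, 5.31, 5.03, 4.92 and 5.23 at day 21, and 4.60, 4.77, 4.79, 4.84 and 4.68 in PBS brains. In each implanted group at least 4 of 5 brains lay above all PBS brains. The rise passed at day 28 (0.49 ± 0.14, 1.40-fold, adjusted p = 0.0185), though not without BAL17 brain 1 of that day (adjusted p = 0.0587). It did not pass in BAL17VII brains (0.38 ± 0.14, adjusted p = 0.156) or in BAL17 brains at day 21 (0.32 ± 0.14, adjusted p = 0.0910), though the last passed in a fit of those 2 groups alone (adjusted p = 0.0348).

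Of 8 other MS4A genes, 3 rose in BAL17VII brains, 5 in BAL17 brains at day 28 and 7 at day 21, and none fell. Ms4a1, which is CD20 and marks B cells, rose by 3.02 ± 0.39 at day 28 and 2.31 ± 0.39 at day 21. Ms4a6c rose by 1.04 ± 0.23 in BAL17VII brains, 1.24 ± 0.23 at day 28 and 1.80 ± 0.23 at day 21, and Ms4a6b rose by 1.20 ± 0.21, 1.29 ± 0.21 and 1.56 ± 0.21 in the same groups. Both are also expressed by lymphoid cells, and Ms4a6c averaged 7.99 in cultured BAL17VII cells and 6.41 in BAL17 cells.

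Cd14, the receptor that hands lipopolysaccharide to Tlr4, did not rise in any implanted group. It measured 5.17, 5.44, 5.37, 5.21 and 5.50 in BAL17VII brains, 5.56, 5.71, 5.60, 5.53 and 5.78 in BAL17 brains at day 28, 5.63, 5.70, 5.69, 5.75 and 5.75 at day 21 and 5.61, 5.80, 5.50, 5.54 and 5.55 in PBS brains. The highest BAL17VII brain lay at the lowest PBS brain or just under it, and the difference of -0.26 ± 0.08 did not pass (adjusted p = 0.0816), though it did after quantile normalization over the brains (adjusted p = 0.0398). The differences in BAL17 brains were 0.04 ± 0.08 (95% interval -0.13 to 0.20) at day 28 and 0.10 ± 0.08 (-0.06 to 0.27) at day 21, and both turned negative after quantile normalization.

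Among 7 genes that work with Cd14 or resemble its partners, Tlr2, the receptor for bacterial lipopeptides, rose in all 3 groups, by 0.45 ± 0.11 in BAL17VII brains, 0.36 ± 0.11 at day 28 and 0.43 ± 0.11 at day 21. Cd180, a Toll-like receptor homologue of B cells, rose at day 28 (0.72 ± 0.16) and at day 21 (0.53 ± 0.16), and Ly96, the co-receptor of Tlr4, rose at day 28 (1.11 ± 0.22). Tlr4 itself was not called.

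Msr1, the class A scavenger receptor, takes up modified lipoproteins. BAL17VII brains had 4.30, 5.05, 5.16, 4.78 and 4.92. BAL17 brains had 5.36, 5.31, 5.08, 5.05 and 5.14 at day 28 and 5.54, 5.32, 5.74, 5.28 and 5.35 at day 21, and PBS brains 4.22, 4.15, 4.47, 4.51 and 4.53. All BAL17 brains lay above all PBS brains, and all BAL17 brains at day 21 lay above all BAL17VII brains. Msr1 rose 1.75-fold at day 28 (0.81 ± 0.13, adjusted p = 0.000144) and 2.10-fold at day 21 (1.07 ± 0.13, adjusted p = 2.41e-06). The difference of 0.46 ± 0.13 in BAL17VII brains missed the threshold (adjusted p = 0.0580) and passed it without BAL17VII brain 1 or 4 and with array weights (adjusted p = 0.0153).

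Mrc1 encodes the mannose receptor CD206, a lectin of border macrophages and of many tissue macrophages. BAL17VII brains had 6.65, 6.66, 6.89, 6.64 and 6.88. BAL17 brains had 7.42, 7.29, 7.03, 7.08 and 7.09 at day 28 and 6.61, 7.60, 6.75, 7.38 and 7.65 at day 21, and PBS brains 6.48, 6.66, 6.51, 6.23 and 6.24. At day 28 every BAL17 brain exceeded every PBS brain, and at day 21 brain 1 did not. Mrc1 rose 1.69-fold at day 28 (0.76 ± 0.16, adjusted p = 0.00193) and 1.71-fold at day 21 (0.77 ± 0.16, adjusted p = 0.000746), and the difference in BAL17VII brains was 0.32 ± 0.16 (adjusted p = 0.331).

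Of 11 other scavenger receptors, 1 rose in BAL17VII brains, 1 at day 28 and 3 at day 21, and none fell. Cd36, which takes up oxidised lipoproteins, rose in all 3 groups, by 1.18 ± 0.27 in BAL17VII brains, 0.88 ± 0.27 at day 28 and 0.85 ± 0.27 at day 21. Of 10 border macrophage genes, none was called by limma's test in BAL17VII brains, where 2 had an unadjusted p under 0.05, 1 in each direction. Lyve1, a hyaluronan receptor, rose at day 28 (0.31 ± 0.10), and Lyve1 (0.27 ± 0.10), the chemokine Pf4 (0.33 ± 0.12) and the scavenger receptor Stab1 (0.19 ± 0.07) rose at day 21. These border macrophage differences are read at low signal, since at most 1 of the 10 genes exceeded the array median in any brain. Their mean was 5.202 in BAL17VII brains, 5.271 and 5.309 in BAL17 brains at days 28 and 21, and 5.149 in PBS brains. It was 5.304 in cultured BAL17VII cells and 5.339 in cultured BAL17 cells.

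F13a1 encodes the A chain of coagulation factor XIII, the transglutaminase that cross-links fibrin, which monocytes and macrophages carry in the cytoplasm. BAL17VII brains had 5.42, 5.63, 5.51, 5.76 and 5.67. BAL17 brains had 5.66, 5.98, 6.0, 5.83 and 5.86 at day 28 and 5.92, 5.92, 6.01, 6.12 and 5.89 at day 21, and PBS brains 5.65, 5.29, 5.84, 5.51 and 5.59. The BAL17 brains of day 21 lay just above all PBS brains and above all BAL17VII brains, and the other groups overlapped. F13a1 rose 1.32-fold at day 21 (0.40 ± 0.09, adjusted p = 0.00279). Its rise at day 28 (0.29 ± 0.09, adjusted p = 0.0379) was lost when any of 7 arrays was left out, BAL17 brains 2, 3, 4 and 5 of that day and PBS brains 2, 4 and 5 (adjusted p from 0.0604 to 0.132). It also did not pass after quantile normalization (adjusted p = 0.137) or in a fit of the 2 groups alone (adjusted p = 0.0576). The difference in BAL17VII brains was 0.02 ± 0.09, with a 95% interval of -0.17 to 0.22. None of 6 related genes, the B chain F13b and other transglutaminases and coagulation factors among them, was called against PBS in any of the 3 groups by limma's test, and at an unadjusted p under 0.05 there was 1, at day 21.

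**Figure D4:**
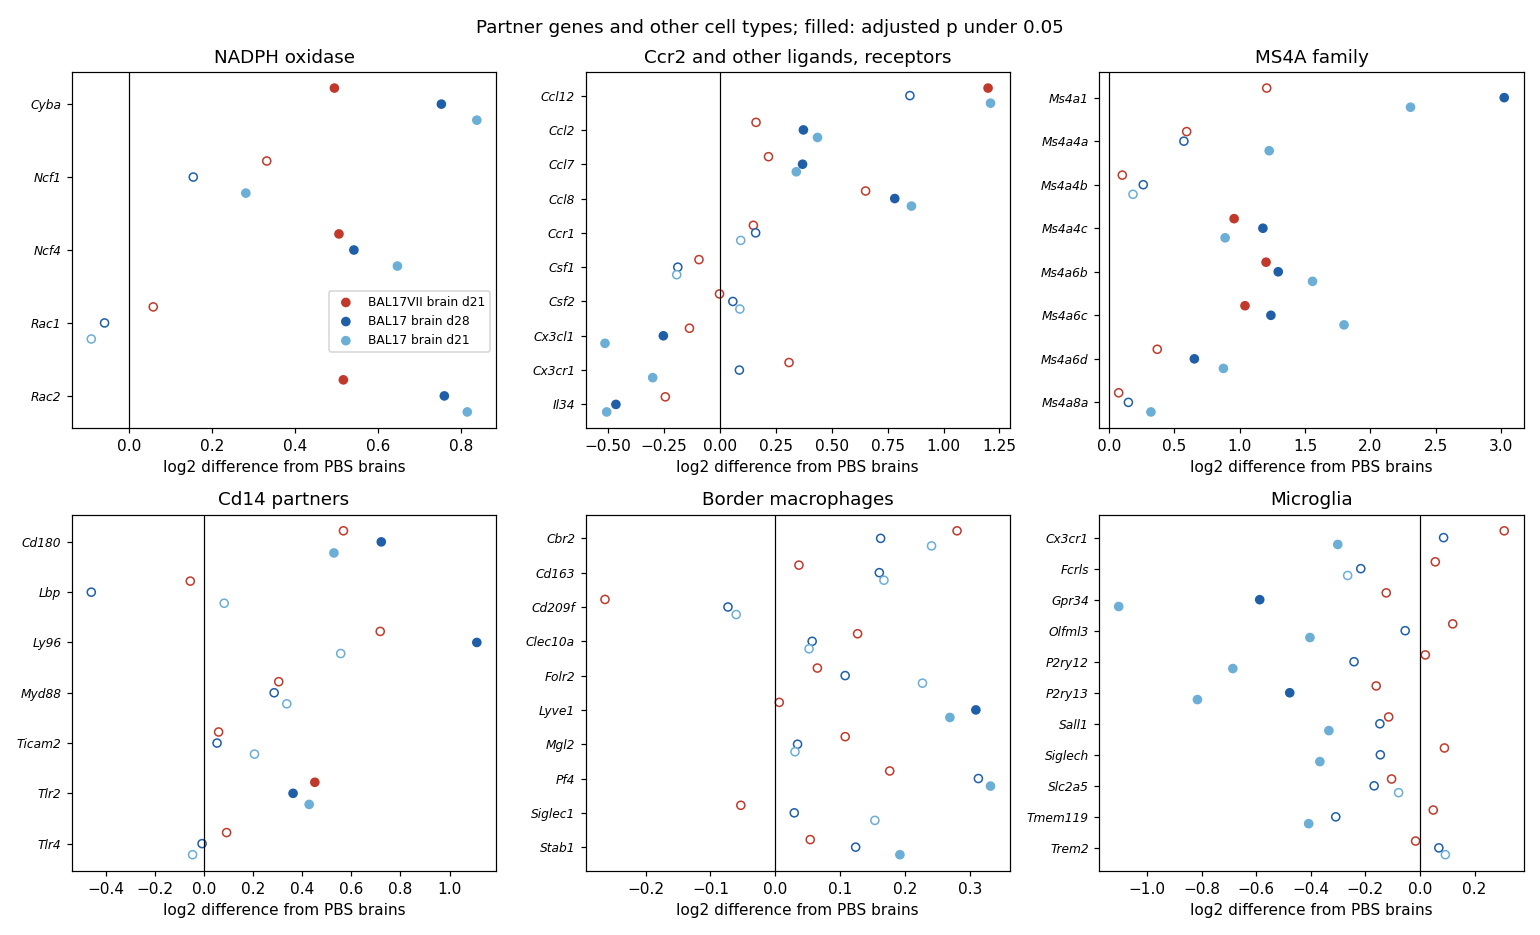
Log2 difference from PBS brains (horizontal axes) of the genes in 6 lists, in BAL17VII brains at day 21, BAL17 brains at day 28 and BAL17 brains at day 21, with filled points where the adjusted p was under 0.05. Cyba, Ncf4 and Rac2 are filled in all 3 groups and lie to the right of 0, and 8 microglial genes are filled to the left of 0 in BAL17 brains at day 21.

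BAL17VII and BAL17 brains at day 21 differed in 3 markers, all lower in BAL17VII brains: Cd14 (-0.37 ± 0.08, adjusted p = 0.00417), Msr1 (-0.61 ± 0.13, adjusted p = 0.00379) and F13a1 (-0.38 ± 0.09, adjusted p = 0.0110). Of all genes, 4.55% were called lower. For each of the 3 genes every BAL17VII brain lay below every BAL17 brain, as the values above show. How many of all genes did so was not counted. The calls held without BAL17VII brain 1, with differences of -0.32 ± 0.08 for Cd14 (adjusted p = 0.0173), -0.47 ± 0.11 for Msr1 (adjusted p = 0.0115) and -0.33 ± 0.10 for F13a1 (adjusted p = 0.0410).

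Mrc1 differed in the same direction, by a difference that missed the threshold (-0.45 ± 0.16, adjusted p = 0.0602) and passed it without BAL17 brain 1 (-0.60, adjusted p = 0.0114) or BAL17 brain 3 (-0.57, adjusted p = 0.0222), or where only genes above a median intensity filter were tested (adjusted p = 0.0440). The other 6 markers did not pass, Lyz2 among them (-0.29 ± 0.30, 95% interval -0.90 to 0.33). Plac8 depended on 1 brain: its difference was 0.69 ± 0.42 (adjusted p = 0.294) with all brains and 1.32 ± 0.21 (adjusted p = 0.000518) without BAL17VII brain 1, and it passed with array weights (adjusted p = 0.0479). B lineage genes moved in this comparison as well, with 3 of 9 lower in BAL17VII brains, and so did pituitary genes, with 5 of 7 higher. The part of these genes in the marker differences was not tested.

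BAL17 brains at day 28 and at day 21 did not differ in any of the 10 markers by limma's test, either at an adjusted or at an unadjusted p under 0.05. The smallest unadjusted p belonged to Ccr2 (0.32 ± 0.16, 95% interval -0.004 to 0.65, unadjusted p = 0.0525). Of all genes, 0.612% were called in either direction. The interval for Lyz2 was -0.33 to 0.89, so differences up to that size lie within what 5 brains a group could not tell from 0.

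The cultured lines differed in 4 markers, all higher in BAL17VII cells: Cybb by 2.95 ± 0.08 (7.70-fold, adjusted p = 3.66e-12), Plac8 by 2.87 ± 0.11 (7.30-fold, adjusted p = 8.01e-11), Cd68 by 0.91 ± 0.09 (1.88-fold, adjusted p = 2.37e-06) and Ccr2 by 0.80 ± 0.09 (1.74-fold, adjusted p = 2.14e-05). Of all genes, 8.48% were called higher. For Cybb, Plac8, Cd68 and Ccr2 every BAL17VII array lay above every BAL17 array. The share of all genes that did so was not counted. For Ccr2 the values were 5.03 to 5.50 (median 5.25) in BAL17VII cells and 4.16 to 4.58 (median 4.46) in BAL17 cells, all below the array medians. The other 6 markers were not called, and their differences lay between -0.20 (Lyz2) and 0.06 (Cd14).

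Other genes of macrophages moved with these 4 in the cultured lines. Of 41 measured genes of a wider macrophage and monocyte list, 15 were higher in BAL17VII cells and none was lower. They included the adaptors Tyrobp (1.08 ± 0.06) and Fcer1g (1.13 ± 0.08), the macrophage adhesion receptor Adgre1, which is F4/80 (1.29 ± 0.10), and Spi1 (1.50 ± 0.10). The median difference of the list was 0.16, beside -0.01 over all genes. Among the oxidase genes Ncf1 (2.02 ± 0.09), Ncf4 (0.91 ± 0.09) and Cyba (0.54 ± 0.09) were higher. Of the 7 genes around Cd14, 5 were higher in BAL17VII cells, Tlr2 (0.91 ± 0.10) among them, and 1 lower, Tlr4 (-0.54 ± 0.14).

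Each brain group was also set against its own cultured line, in a fit of all 32 arrays. Brain tissue, culture and any separate processing cannot be told apart in these comparisons, and the labels number the line arrays and the brain arrays in separate sets. In BAL17VII brains, 4 markers were higher than in BAL17VII cells (Lyz2, Ms4a7, Mrc1 and F13a1) and 4 lower (Cybb, Plac8, Ccr2 and Cd68), beside 26.6% and 44.8% of all genes. In BAL17 brains at day 28, 7 were higher than in BAL17 cells and 1, Cd68, was lower, beside 24.4% and 43.9%. At day 21, 6 were higher and 1, Plac8, was lower, beside 24.2% and 41.9%. The median over all genes was -0.18, -0.17 and -0.15 in these comparisons, and -0.30, -0.31 and -0.30 after centring each array on its median over named genes.

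The classes above were set by the culture levels that also enter these differences, so the values are a description of single genes. Lyz2 exceeded its level in culture 11.3-fold in BAL17VII brains (3.49 ± 0.26), 14.5-fold in BAL17 brains at day 28 (3.86 ± 0.26) and by 3.58 ± 0.26 on the log2 scale at day 21. Mrc1 exceeded it by 0.78 ± 0.16, 1.23 ± 0.16 and 1.25 ± 0.16 in the same groups, and F13a1 by 0.45 ± 0.09, 0.64 ± 0.09 and 0.75 ± 0.09. The log2 difference of BAL17VII brains from BAL17VII cells was -3.57 ± 0.30 for Cybb and -3.17 ± 0.34 for Plac8, and without BAL17VII brain 1 it was -3.09 ± 0.20 and -2.54 ± 0.18. Ccr2 was also lower than in BAL17VII cells (-0.51 ± 0.14, adjusted p = 0.00138). Without brain 1 the 8 calls in BAL17VII brains held.

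In BAL17 brains the levels of both lay nearer to those of the cultured line, with Cybb differing by -0.48 ± 0.30 at day 28 (adjusted p = 0.146) and -0.22 ± 0.30 at day 21 (adjusted p = 0.524). Plac8 differed by -0.56 ± 0.34 at day 28 (adjusted p = 0.146) and was lower at day 21 (-0.99 ± 0.34, adjusted p = 0.0117). In a fit of BAL17 brains at day 28 and BAL17 cells alone, both were called lower (adjusted p = 0.00661 for Cybb and 0.00478 for Plac8). In that fit 3 markers were lower instead of 1, beside 8728 of the 19938 genes. Plac8 at day 28 was also called lower with array weights (adjusted p = 0.0438). Msr1 was higher than in BAL17 cells at day 28 (0.42 ± 0.14) and day 21 (0.68 ± 0.14) and was not called in BAL17VII brains (0.08 ± 0.14). The rise of Ms4a7 over BAL17 cells at day 21 was lost without any of 7 arrays, BAL17 line arrays 2, 3, 4 and 5 and BAL17 brains 2, 3 and 5. That of Ms4a7 in BAL17VII brains was lost without BAL17VII brain 2 (adjusted p = 0.105). The rise of Ccr2 at day 28 was lost without BAL17 line array 5, BAL17 brain 1 or BAL17 brain 3. Cd68 at day 21 was not called (-0.29 ± 0.15, adjusted p = 0.0788). It was called lower without BAL17 brain 2 (-0.39, adjusted p = 0.0240) and after median centring (-0.44, adjusted p = 0.00689). The same held with array weights (adjusted p = 0.0321) and in a fit of those 2 groups alone (adjusted p = 0.03215). After median centring the calls of Ccr2, Cd14 and Msr1 at day 28, of Ms4a7 at day 21 and of Ms4a7 in BAL17VII brains were lost.

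The implanted brains were also compared with PBS brains and the cultured line at once. In BAL17 brains at day 21, Lyz2, Msr1 and F13a1 exceeded every PBS brain and every array of cultured BAL17 in all 5 brains, as did 0.266% of all genes (53 genes). At day 28 this held for Lyz2 and Mrc1 and for 0.155% of all genes (31 genes). In BAL17VII brains it held for none of the 10 markers and for 0.0702% of all genes (14 genes). Without BAL17VII brain 1 it held for 2, Lyz2 and Ms4a7, and for 0.12% of all genes (24 genes), and Mrc1 exceeded both in 3 BAL17VII brains. Without BAL17 brain 1 of day 21, Ms4a7 and Mrc1 joined the 3 markers of that group, beside 0.376% of all genes (75 genes). Cybb exceeded both in 1 BAL17 brain of day 21 and in no other brain, and Plac8 and Cd68 in none.

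**Figure D5:**
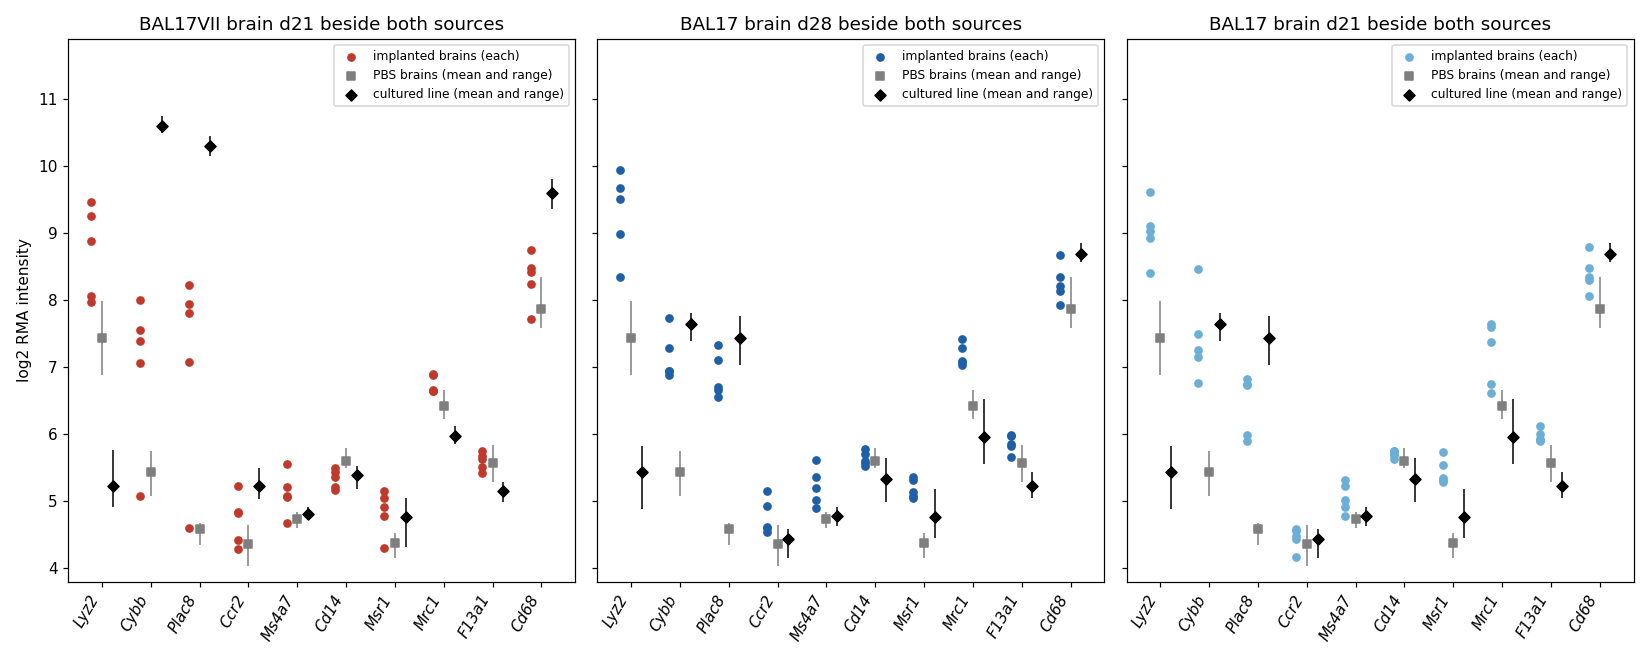
Log2 RMA intensity (vertical axis) of the 10 markers in each implanted brain (coloured points), beside the mean and range of PBS brains (squares) and of the cultured line that was implanted (diamonds). Lyz2 lies above both sources in every BAL17 brain, and Cybb, Plac8 and Cd68 lie between PBS brains and cultured cells or within the range of one of them in all brains but 1.

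Other macrophage genes gave a mixed account of the same brains. Of the 41 genes of the wider list, 6 rose and none fell in BAL17VII brains, 15 rose and 1 fell in BAL17 brains at day 28, and 17 rose and 4 fell at day 21. The median differences were 0.17, 0.26 and 0.27 in these groups. Fcgr2b, an inhibitory Fc receptor of B cells and macrophages, rose by 0.76 ± 0.13, 0.96 ± 0.13 and 0.98 ± 0.13, and Spi1 by 0.82 ± 0.12, 0.66 ± 0.12 and 0.79 ± 0.12. Ly86, the partner of Cd180, rose by 0.95 ± 0.19 in BAL17VII brains, and Chil3, a lectin of alternatively activated macrophages, rose by 0.70 ± 0.12 in BAL17 brains at day 21. The genes that fell were Vcan at day 28 (-0.49 ± 0.11), and Itgam (-0.89 ± 0.14), Csf1r (-0.55 ± 0.13), Sirpa (-0.36 ± 0.08) and Vcan (-0.29 ± 0.11) at day 21. Itgam, Csf1r and Sirpa are carried by microglia as well.

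Microglial genes did not rise with the markers. Of 11 measured, none was called in BAL17VII brains by limma's test (1 higher at an unadjusted p under 0.05). In BAL17 brains 2 fell at day 28 and 8 at day 21, beside 2290 and 3747 of the 19938 genes. Gpr34, a microglial receptor, fell by 0.59 ± 0.17 at day 28 and 1.10 ± 0.17 at day 21. The mean over these genes was 6.82 to 7.17 in BAL17VII brains, 6.64 to 6.96 in BAL17 brains at day 28, 6.43 to 6.74 at day 21 and 6.90 to 7.14 in PBS brains. Compared at day 21, 7 of 11 were higher in BAL17VII brains than in BAL17 brains, beside 1783 of the 19938 genes. This is the opposite direction to Cd14, Msr1 and F13a1. Genes of other leukocytes changed in the same brains: of 10 dendritic cell genes, none was called in BAL17VII brains (3 higher at an unadjusted p under 0.05 in limma's test), 3 rose at day 28, and 3 rose and 1 fell at day 21. Of 12 genes of T and NK cells, 1 rose in BAL17VII brains, 3 rose and 1 fell at day 28, and 3 rose at day 21. The part of these cell types in the marker differences was not tested.

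The genes whose levels followed each marker most closely over the 20 brains were also listed. The coefficients are Pearson's r among 11236 genes. These are genes other than the markers whose mean over the brains exceeded the mean array median, so genes of lower signal could not be listed. The coefficients describe 4 groups of brains that share their implants, and they carry no test. The closest to Plac8 were Cd2 (0.963), a lymphocyte adhesion molecule, and Vpreb3 (0.958), a gene of B cells. The closest to Cybb were Cd74 (0.972) and H2-Aa (0.964), which serve antigen presentation by MHC class II in B cells and macrophages alike. Msr1 followed Cxcr4 (0.950), a chemokine receptor of leukocytes, and Rhoh (0.948), a GTPase of blood cells. Lyz2 followed B2m (0.936), the light chain of MHC class I, and Msn (0.935), a linker of membrane and cytoskeleton. Ccr2 followed Ccl5 (0.837) and Cd180 (0.812), and Mrc1 followed Dkc1 (0.889) and Lsm2 (0.884), genes of RNA processing. Ms4a7 followed Polr1d (0.892) and Ankrd37 (0.848), F13a1 followed Snora3 (0.872) and Atg16l2 (0.864), and Cd68 followed Eif3i (0.918) and Suclg2 (0.911). The coefficients were lowest for Cd14, which followed Fam53a (0.724) and Nupl2 (0.694).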

How the data were processed

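The deposited values are probe-set intensities on a linear scale (2.72 to 17825). Per the submitters' processing notes, the authors made them with RMA in Affymetrix Expression Console, whose versions, build and joint or separate normalization of lines and brains are not given in the sources used here. Per the labels' protocols, RNA was extracted with Trizol from frozen sections. Of 35556 probe sets, 21789 carried 1 gene symbol, 1621 several and 12146 none. The first represent 19938 genes, each by its probe set of highest mean over the 32 arrays. Log2 values were tested with limma 3.58.1 in R 4.3.3 (group means, eBayes, Benjamini-Hochberg over all genes, two-sided) in fits of 12 line arrays, 20 brains or all arrays, without an intensity filter, so that all 10 markers were tested. Errors are SE. RMA gives no detection call, background can shrink differences at low signal, and the number of arrays limits precision. The array median includes control probe sets, which the file does not mark. Named genes were all 10 markers, up to 4 genes of each other list with the smallest adjusted p in a brain comparison, list genes called against the direction of their list, and the 2 genes closest to each marker. The markers and lists were chosen with earlier results of these data known. Deviations of same-numbered samples from their group means correlated between -0.319 and 0.483. The highest were for numbers 2 (0.483) and 4 (0.375) in BAL17 brains at day 21 and PBS brains. The labels state no pairs, so numbers were not used as pairs in the main fits. Alternatives were quantile normalization, median centring, filters at the 50th and 75th percentile, the mean of probe sets, log2(value + 16), trended and robust moderation, array weights, fits of 2 groups, a replicate block and leaving out each array. The fitting script was tested on simulated data.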

Additional observations from a re-analysis of the deposited data

Results flagged for a closer look

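Plac8 in PBS brain 4 (4.347) lay apart from the other 4 PBS brains (4.595 to 4.684), with a gap of 0.736 of the group's range. It was 1 of 60 checks of a marker in a group, and chance gives such a gap in about 1 of 20. The 3 differences of effect between BAL17VII and BAL17 implants at day 21, each tested directly, were -0.366 for Cd14, -0.606 for Msr1 and -0.375 for F13a1. Microglial genes differed in the opposite direction in the same comparison, and B lineage genes in the same direction. Their part in these differences was not tested.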

How the results depend on the processing

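Of 748 values of single markers under alternatives other than leaving out an array, 712 kept their direction and side of the threshold, and of 950 values with an array left out, 885 did. Filters on intensity tested fewer markers (3 in the lines, 5 or 2 in the brains, 5 or 4 over all arrays), and calls were lost with the markers removed. With the median filter, 5 markers were called at day 21 and 4 at day 28 in BAL17 brains and 3 in BAL17VII brains against PBS, and 1 between BAL17VII and BAL17 brains, Mrc1, which was gained while the filter removed Cd14, Msr1 and F13a1. It left 3 against culture at each day in BAL17 brains and 5 in BAL17VII brains. Of the 11965 genes that the median filter kept in the brains, 1572 were called higher than PBS at day 21, 1061 at day 28 and 403 in BAL17VII brains. With the 75th percentile filter, 1 was called in BAL17VII brains, 1 at day 28 and 2 at day 21 against PBS. Of the 5908 genes that this filter kept in the brains, 223, 532 and 726 were called higher than PBS in these groups. The filter left 0 between BAL17VII and BAL17 brains, and against culture 2 at each day and 4 in BAL17VII brains. Of the 7299 genes kept over all arrays, 2830 were called higher and 3605 lower than culture at day 28. The numbers were 2763 and 3612 at day 21, and 3045 and 3478 in BAL17VII brains. Trended and robust moderation left 1 marker in BAL17VII brains against PBS, Plac8, and called 400 of all genes higher there. Leaving out an array gave 1 to 5 markers in that comparison: 5 without BAL17VII brain 1 or 4 and 1 without BAL17VII brain 2 or 3 or PBS brain 1. Median centring left 5 of 8 called at day 28 against culture, beside 4129 of all genes called higher and 11456 called lower. The 25th percentile left 2 host-only markers. Leaving out each implanted brain, chosen after seeing the data, gave 0 to 2 markers above both sources in BAL17VII brains, 2 to 3 in BAL17 brains at day 28 and 3 to 5 at day 21. The shares of all genes then ran from 0.0752% to 0.231%, 0.176% to 0.261% and 0.301% to 0.376% in these groups. For the values that turned sign, none called, the cause was not tested.

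Quantile normalization turned Msr1 between the lines (0.0193), Cd14 at day 21 (-0.0269) and day 28 (-0.0537) and F13a1 in BAL17VII brains (-0.0315) against PBS. Array weights called 9 markers at day 28, with Ccr2 and Cd68 added, 4 in BAL17VII brains against PBS, with Msr1 added, and Plac8 as higher in BAL17VII than in BAL17 brains. Of all genes, they called 1762 higher at day 28 and 587 higher in BAL17VII brains against PBS. Array weights turned Msr1 between the lines (0.0539) and F13a1 in BAL17VII brains (-0.0261). Median centring turned Mrc1 between the lines (-0.0059) and between days 28 and 21 (0.0006), Ccr2 at day 21 (-0.1351) and Msr1 in BAL17VII brains (-0.0381) against culture. With an array left out, differences between the lines ranged from -0.0034 to 0.0519 (Ms4a7), -0.0116 to 0.1190 (Cd14), -0.0732 to 0.0786 (Msr1) and -0.0652 to 0.1288 (Mrc1). F13a1 in BAL17VII brains against PBS ranged from -0.0495 to 0.0880. Between BAL17VII and BAL17 brains, Cybb ranged from -0.6529 to 0.0782, Ms4a7 from -0.0452 to 0.1746 and Cd68 from -0.1854 to 0.0734. Mrc1 between days ranged from -0.1618 to 0.0994, and against culture Ccr2 at day 21 from -0.0410 to 0.0845 and Msr1 in BAL17VII brains from -0.0083 to 0.2153.

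The replicate number as a block (replicate block), though the labels state no pairs, called 8 markers instead of 7 at day 28 against PBS, with Cd68 added (adjusted p = 0.0353). Of all genes, 1337 were called higher there with the block. The block left the other counts at 4 between the lines, 7 at day 21, 3 in BAL17VII brains, 3 between BAL17VII and BAL17 brains and 0 between days. Over all genes, quantile normalization gave 1462 higher and 1512 lower at day 28 against PBS, beside 1307 and 2290, and 1299 and 1205 between BAL17VII and BAL17 brains at day 21, beside 1783 and 908. A fit of BAL17VII and PBS brains alone called 186 higher and 11 lower genes, beside 409 and 129.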
